A study of Arabidopsis thaliana with 16 samples.

Results

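Seedlings of rpn10-1, an Arabidopsis thaliana mutant in a ubiquitin receptor of the 26S proteasome, were compared with untreated seedlings of the wild type, Col-0. The groups compared held 6 of the 16 libraries of the series, chosen by the genotype and treatment in their labels: 2 libraries of untreated rpn10-1 and 4 of untreated Col-0. The model was fitted to all 16, so the other 10 bear on the spread and on the library set term described below. These are 8 libraries of Col-0 treated with 100 µM of the proteasome inhibitor MG132 for 3 or 24 hours and 2 of untreated rpn12a-1. All genes of the 5 nuclear chromosomes were considered, and 21062 of them had enough counts to be tested. RNA came from whole seedlings grown for 5 days in liquid Murashige and Skoog medium with sucrose, under constant light, and the groups compared were labelled as untreated. The rpn10-1 plants carry an exon-trap insertion in RPN10. Where rpn10-1 was isolated is not in the labels, so effects of the mutation and other differences between the lines cannot be told apart. Nothing says that replicates were independent cultures, and p-values thus reflect only how far these libraries spread, which can be technical variation. The rpn12a-1 seedlings, mutant in a lid subunit of the proteasome, served as a further comparison.

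The 26S proteasome degrades proteins tagged with chains of ubiquitin. Its barrel-shaped core particle holds the proteolytic sites, and a regulatory particle on either end, made of a base with ATPases and a lid, recognises, deubiquitinates and unfolds the substrates. RPN10 is one of the receptors of the regulatory particle that bind ubiquitin chains, beside RPN13 and a set of shuttle proteins. In plants, as in yeast and animals, genes of proteasome subunits are known to be induced together when proteasome capacity falls short, and in Arabidopsis the membrane-bound transcription factors NAC053 and NAC078 are known to act on them.

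The 4 Col-0 libraries held 10710362 to 15368235 counts and the rpn10-1 libraries 14318249 and 10851831. Per the labels, Col-0 libraries 3 and 4 carry a note on technical replicates that Col-0 libraries 1 and 2 and both rpn10-1 libraries lack, and the presence of this note, called the library set, was a term of the fit. Fold changes are therefore adjusted for the set. By chi-square per degree of freedom between counts, organelle genes included, the rpn10-1 libraries differed more than any Col-0 pair: 69.7 against 14.2 to 43.7. By Pearson correlation of log2 levels they were close to the least alike Col-0 pair, at 0.9655 against 0.9664 to 0.9884. Library 1 of rpn10-1 had counts in 27808 nuclear genes, where the other 5 libraries had counts in 22596 to 23473. Of 5991 nuclear genes at 0 in every other library of the series, 2488 had counts in it, at most 14 counts in a gene. Library 2 of rpn10-1 stood out in organelle RNA, with 3.03% of its counts in plastid genes and 1.86% in mitochondrial genes, against 0.219% to 2.04% and 0.0702% to 0.503% in Col-0. It also stood out in 12 markers of mature seeds, whose summed level was 119 CPM (counts scaled to a library size of 1e6, on TMM-scaled sizes) there, 1.98 CPM in library 1 and 4.63 to 7.95 CPM in Col-0.

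**Figure D1:**
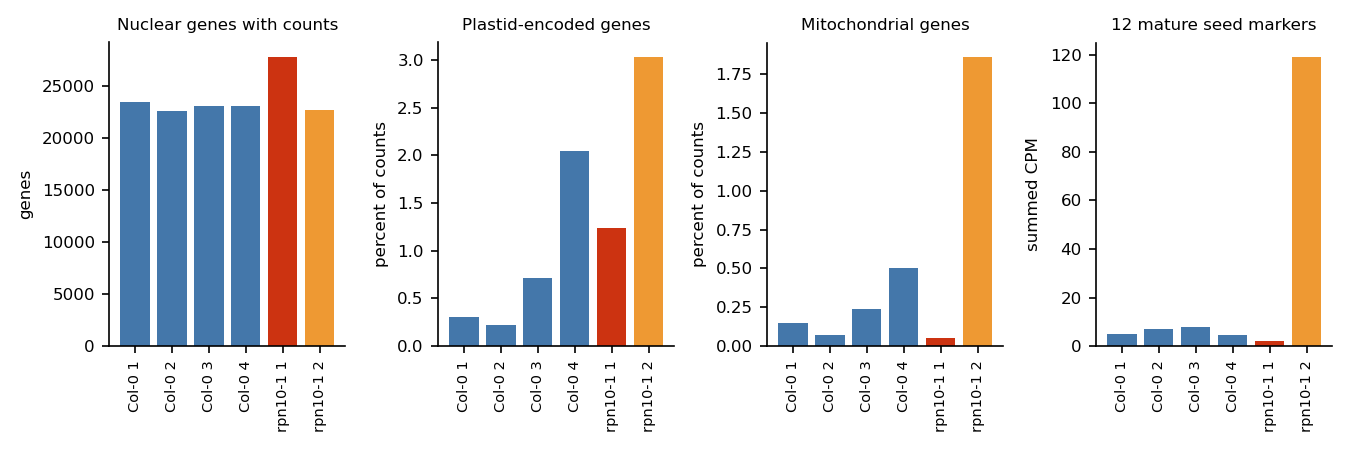
Bars show, for the 4 untreated Col-0 and the 2 rpn10-1 libraries, the number of nuclear genes with at least 1 count, the percent of counts in plastid-encoded and in mitochondrial genes, and the summed CPM of 12 mature seed markers. Library 1 of rpn10-1 had 27808 nuclear genes with counts, and library 2 had the highest organelle shares and 119 CPM of seed markers.

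RPN10 (AT4G38630, chr4:18056988-18059598, minus strand, TAIR10.1), the mutated gene, was lower in both rpn10-1 libraries than in any Col-0 library, at 21.4 and 22.2 CPM against 98.6 to 136 CPM. Its log2 fold change was -2.42 (SE 0.18, edgeR adjusted p = 3.4e-07) and lay between -2.60 and -2.28 under every alternative run. In the first principal component of the 6 libraries, which held 59.9% of the variance, rpn10-1 lay at 69.5 and 54.9 and Col-0 between -46.4 and -9.44.

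Across the nuclear genome, 4770 genes, or 22.6% of those tested, passed the threshold of edgeR's quasi-likelihood test at a Benjamini-Hochberg adjusted p of 0.05. Of these, 2324 (11%) were higher in rpn10-1 and 2446 (11.6%) were lower. At least a 2-fold difference was fitted for 1100 of the higher and 1372 of the lower genes, and in 3987 of the 4770 the libraries of the groups did not overlap. Of all tested genes, called or not, 19.4% lay higher and 18.9% lower in both rpn10-1 libraries than in every Col-0 library. The median log2 fold change over all tested nuclear genes was 0.0085. Against Col-0 libraries 1 and 2 alone, the controls of the same library set, 1246 genes were higher and 1649 lower of 19936 tested (6.25% and 8.27%). A total of 734 genes, 280 higher and 454 lower, were called in the same direction under each of the 14 alternatives. Without rpn10-1 library 1 the counts were 947 higher and 1205 lower, and without library 2 they were 2179 and 2247. Without Col-0 library 1 they were 1375 and 1782, without Col-0 library 2 they were 1398 and 1623, and without the library set term 1277 and 1443.

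Genes of the proteasome itself rose together, where 11% of all tested genes rose and 11.6% fell. Of 55 tested subunit genes 48 rose and 2 fell, with a median log2 fold change of 1.21, and the subunits of every subcomplex took part. In the core particle all 24 tested genes rose, with a median of 1.28 and a range of 0.37 to 2.53. Of the 16 base genes 13 rose and none fell (median 1.11), and of the 15 lid genes 11 rose and 2 fell (median 0.88). Against Col-0 libraries 1 and 2 alone, 21 core, 10 base and 8 lid genes rose, and 1 lid gene fell. Without rpn10-1 library 1, 22, 13 and 9 rose, and without library 2, 23, 11 and 9. In a fit on Col-0 libraries 1 and 2 and rpn10-1 alone with a replicate block, 23 of the 55 rose.

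In the core particle the largest rise was that of PAA2 (AT2G05840), one of a pair of genes for the alpha1 subunit of the outer ring. PAA2 stood at 80.1, 83.7, 70.1 and 64.8 CPM in Col-0 and at 472 and 439 CPM in rpn10-1, and rose by a log2 fold change of 2.53 (SE 0.15, edgeR adjusted p = 4.9e-08). Its partner PAA1 went from 87.7, 98.1, 76.1 and 72 CPM to 176 and 178 CPM, a log2 fold change of 0.96 (SE 0.14, edgeR adjusted p = 0.00029). For both genes every rpn10-1 value lay above every Col-0 value. PBD2, for the beta4 subunit, stood at 39.1 to 51 CPM in Col-0 and at 185 and 181 CPM in rpn10-1 (log2 fold change 1.94, SE 0.14). Its partner PBD1 stood at 30.1 to 54.9 CPM and at 76.3 and 70.3 CPM (0.60, SE 0.14).

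The genes for the catalytic beta subunits were among those that rose. PBE2, for the beta5 subunit with chymotrypsin-like activity, stood at 21.8, 23.57, 17.1 and 16.8 CPM in Col-0 and at 69.1 and 72.9 CPM in rpn10-1 (log2 fold change 1.76, SE 0.13). PBB2, for the beta2 subunit with trypsin-like activity, stood at 52.9, 58.4, 43.6 and 39.1 CPM and at 190 and 163 CPM (1.77, SE 0.14). The smallest rise in the core was that of the other beta2 gene, PBB1, from 91.6 to 122 CPM in Col-0 to 149 and 153 CPM (0.37, SE 0.11, edgeR adjusted p = 0.027). It was called under 7 of the 14 alternatives.

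**Figure D2:**
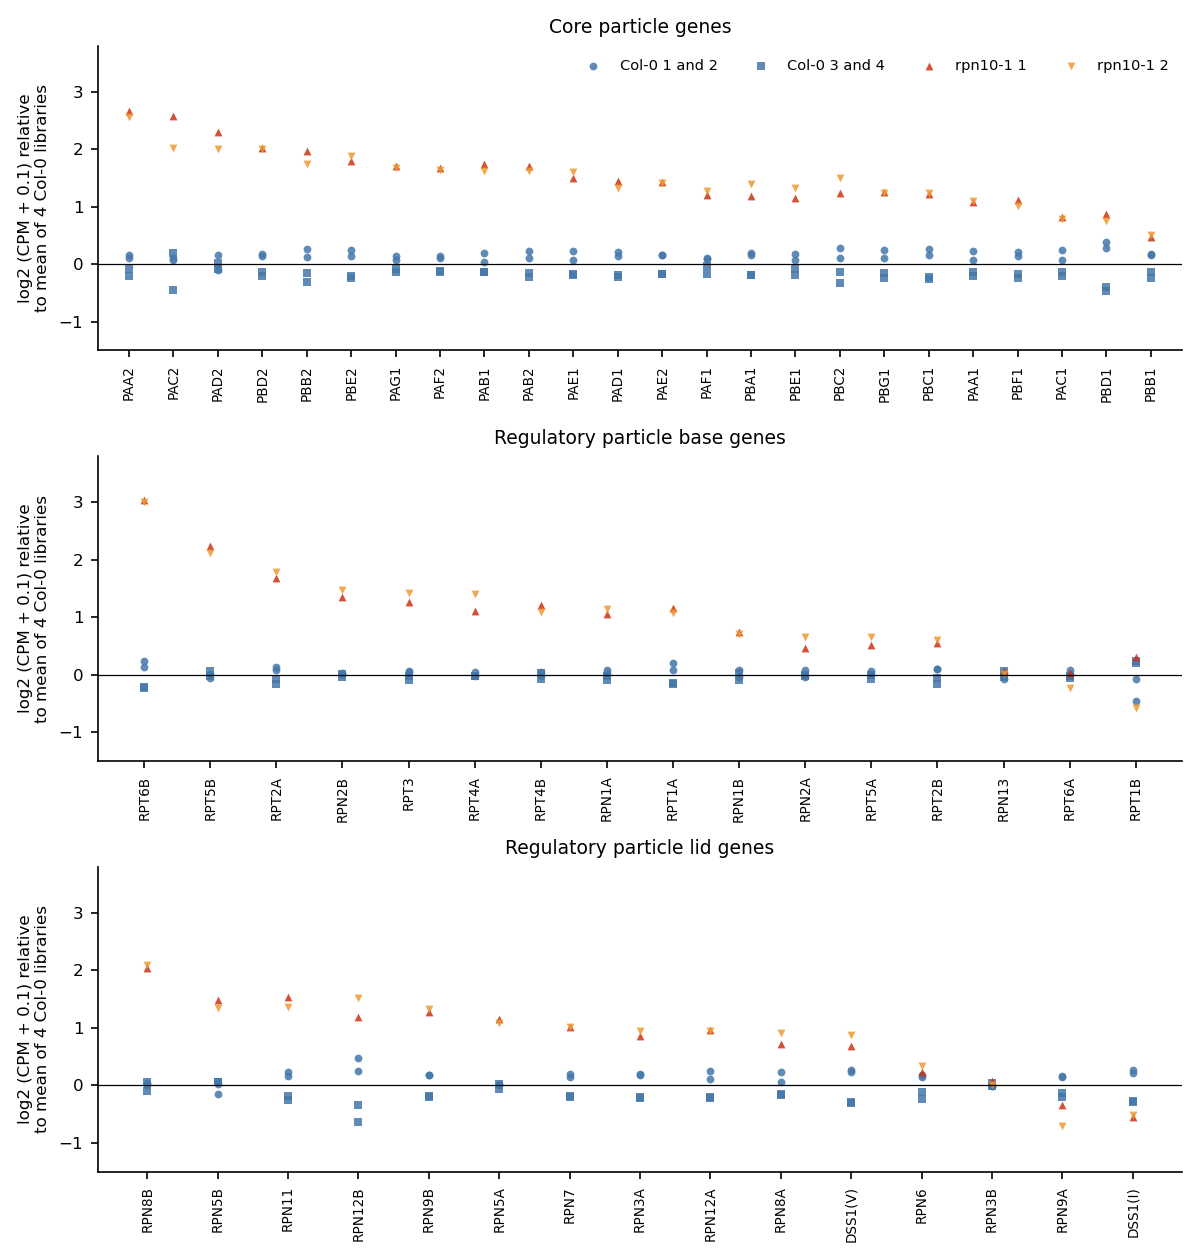
Each point is 1 library, plotted as log2 of CPM + 0.1 relative to the mean of the 4 Col-0 libraries, for the tested genes of the core particle, base and lid, ordered by the fitted change. All 24 core genes lay higher in both rpn10-1 libraries than in Col-0, as did 19.4% of all tested genes, while RPT6A, RPT1B, RPN13 and RPN3B overlapped with Col-0 and RPN9A and DSS1(I) lay below it.

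Among the ATPases of the base, RPT6B (AT5G20000) rose most. It stood at 40, 37.1, 28.8 and 29.2 CPM in Col-0 and at 279 and 271 CPM in rpn10-1, a log2 fold change of 3.03 (SE 0.18, edgeR adjusted p = 4.3e-08). RPT6A (AT5G19990), its partner gene and neighbour on chromosome 5, stood at 83, 78.6, 75.1 and 76.8 CPM and at 79.6 and 67 CPM (-0.08, SE 0.12, edgeR adjusted p = 0.66). One RPT6A value of rpn10-1 lay within the Col-0 range and the other lay below it. RPT5B rose from 22.1, 23.4, 22.8 and 24 CPM to 110 and 101 CPM (2.27, SE 0.18), and its partner RPT5A from 130, 125, 125 and 118 CPM to 178 and 197 CPM (0.66, SE 0.16). RPT2A, RPT3, RPT4A, RPT4B and RPT1A rose by log2 fold changes of 1.05 to 1.79. RPT1B stood at 64.5 and 35.3 CPM in rpn10-1, on either side of its Col-0 range of 38.2 to 61.5 CPM.

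The scaffold and receptor subunits of the base differed from each other. RPN1A and RPN2B, large subunits on which receptors and ATPases dock, rose by 1.18 (SE 0.16) and 1.56 (SE 0.21) on the log2 scale, and RPN1B and RPN2A by 0.77 (SE 0.15) and 0.67 (SE 0.18). RPN13, the other ubiquitin receptor of the base, stood at 36.8, 34.2, 35.1 and 37.8 CPM in Col-0 and at 37.8 and 36.3 CPM in rpn10-1. Its values overlapped fully, and its log2 fold change was 0.01 (SE 0.11, edgeR adjusted p = 0.97). An SE beside a fold change so near 0 can be too small.

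In the lid the genes of some pairs differed in the size or the direction of their change. RPN8B, for a structural subunit that pairs with the deubiquitinase RPN11, stood at 19.3, 19.7, 19.9 and 18 CPM in Col-0 and at 79.2 and 82.3 CPM in rpn10-1 (log2 fold change 2.05, SE 0.13, edgeR adjusted p = 9.3e-08). Its partner RPN8A rose by 0.74 (SE 0.13). RPN11, which removes ubiquitin chains from substrates, rose from 97, 102, 73 and 76.2 CPM to 251 and 224 CPM (1.41, SE 0.17). RPN9B rose from 46.8, 47.1, 36.4 and 35.8 CPM to 101 and 105 CPM (1.24, SE 0.12), whereas its partner RPN9A fell from 65.1, 63.9, 50.4 and 52.8 CPM to 45.9 and 35.7 CPM (-0.63, SE 0.13, edgeR adjusted p = 0.0031). DSS1(I), a gene for the smallest lid subunit, fell from 88.9, 85.5, 61.3 and 60.4 CPM to 50.4 and 51.6 CPM (-0.78, SE 0.18, edgeR adjusted p = 0.0064), and its partner DSS1(V) rose (0.56, SE 0.17, edgeR adjusted p = 0.03). The calls of RPN9A and DSS1(I) were each lost under 3 of the 14 alternatives. RPN6 and RPN3B were not called, with log2 fold changes of 0.26 (SE 0.15) and 0.11 (SE 0.15).

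**Figure D3:**
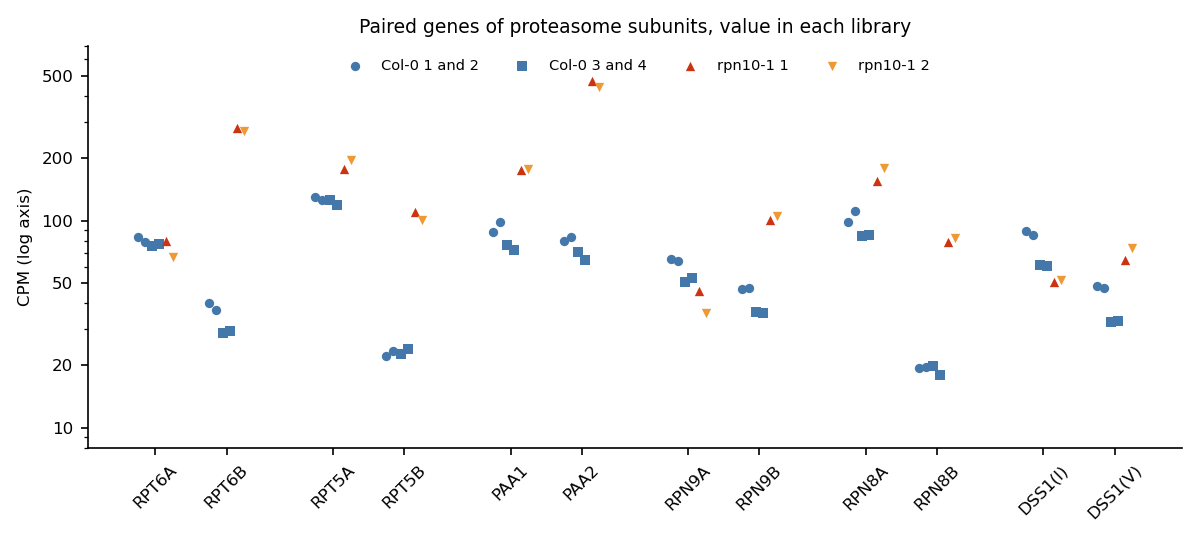
Points give the CPM of each library, on a log axis, for both genes of 6 proteasome subunits that Arabidopsis encodes in pairs. RPT6B reached 279 and 271 CPM in rpn10-1 while RPT6A stayed near its Col-0 values, and RPN9A and DSS1(I) lay lower in rpn10-1 while their partners lay higher.

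Reads of such pairs can be hard to assign where the copies are alike, and how the authors treated reads that fit several genes is not given in the sources used here, so values of single pair members are uncertain. RPT5B and RPN9B also overlap a neighbouring annotated gene, and the library kit does not mark strand.

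The sequences upstream of some of these genes are shown because a short motif, TGGGC, has been described in promoters of Arabidopsis proteasome genes. In the 250 bases before the annotated start (RefSeq, TAIR10.1), TGGGC or its reverse complement GCCCA occurred in 27 of the 55 subunit genes (49.1%) and in 25.3% of 20423 tested protein-coding genes. Other lists had similar shares, such as 50% of 32 heat shock genes and 50% of 16 genes for receptors, shuttles and CDC48. TGGGC is also a part of longer elements such as TGGGCC, and matches on the opposite strands can overlap, as in RPN1A. The pair RPT6A and RPT6B is printed because its genes differed most, and RPN1B, RPN1A and PBB1 because they were among those with the most matches of the 34 subunit genes whose window overlaps no other gene. Windows are read in the direction of the gene, and capitals mark each TGGGC or GCCCA. The windows lie on the plus strand except that of RPN1B, which is on the minus strand: RPT6A at chr5:6751548-6751797, RPT6B at chr5:6756383-6756632, RPN1B at chr4:14072583-14072832, RPN1A at chr2:8858712-8858961 and PBB1 at chr3:10152208-10152457.
RPT6A: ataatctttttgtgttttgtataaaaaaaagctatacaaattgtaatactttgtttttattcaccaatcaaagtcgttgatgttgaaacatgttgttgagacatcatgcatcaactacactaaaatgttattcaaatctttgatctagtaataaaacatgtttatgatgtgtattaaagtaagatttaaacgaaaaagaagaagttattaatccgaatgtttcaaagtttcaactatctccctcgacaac
RPT6B: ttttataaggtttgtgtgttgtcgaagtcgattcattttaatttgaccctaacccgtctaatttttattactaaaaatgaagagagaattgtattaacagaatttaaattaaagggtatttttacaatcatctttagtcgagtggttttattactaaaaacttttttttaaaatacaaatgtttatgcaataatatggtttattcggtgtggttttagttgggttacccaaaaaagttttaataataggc
RPN1B: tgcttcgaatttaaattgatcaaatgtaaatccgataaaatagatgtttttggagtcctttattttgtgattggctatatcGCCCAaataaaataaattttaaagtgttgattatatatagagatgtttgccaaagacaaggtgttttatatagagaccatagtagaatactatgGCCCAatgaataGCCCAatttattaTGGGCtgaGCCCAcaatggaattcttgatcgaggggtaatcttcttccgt
RPN1A: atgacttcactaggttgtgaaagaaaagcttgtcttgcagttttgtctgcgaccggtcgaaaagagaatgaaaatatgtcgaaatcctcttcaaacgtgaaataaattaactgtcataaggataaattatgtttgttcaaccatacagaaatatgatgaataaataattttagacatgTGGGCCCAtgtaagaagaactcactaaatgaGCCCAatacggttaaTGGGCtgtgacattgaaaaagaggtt
PBB1: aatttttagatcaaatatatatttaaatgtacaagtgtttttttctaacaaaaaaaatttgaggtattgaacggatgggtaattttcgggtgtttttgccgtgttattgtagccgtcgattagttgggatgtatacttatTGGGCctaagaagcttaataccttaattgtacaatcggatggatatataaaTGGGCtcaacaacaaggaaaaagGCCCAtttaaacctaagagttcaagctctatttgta

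RPN1B held 5 matches, RPN1A 4 and PBB1 3, and their log2 fold changes in rpn10-1 were 0.77, 1.18 and 0.37. RPT6B, with the largest rise of all subunit genes, held no match in its window, and neither did RPT6A. Of the 48 subunit genes that rose 25 held a match (52.1%), and of the other 7 genes 2 did (28.6%). Over all tested protein-coding genes the share was 30.6% among the genes that rose, 21.4% among those that fell and 25.2% among the rest. A missing match says only that these letters are not in this window.

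Genes for factors that build or modify the proteasome also rose, where 11% of all tested genes did. Of 15 tested genes for assembly chaperones, alternative caps and bound deubiquitinases 10 rose and none fell, and the median log2 fold change was 0.73. The largest rises were in chaperones of the base. HSM3 stood at 13.7, 13.3, 15.8 and 16 CPM in Col-0 and at 71.3 and 55.2 CPM in rpn10-1 (2.22, SE 0.23), and NAS6 at 8.58, 13.7, 11.4 and 9.2 CPM and at 48 and 48.5 CPM (2.11, SE 0.16; edgeR adjusted p = 1.3e-05 and 4.6e-07). PA200, an activator that caps the core in place of the regulatory particle, rose from 71.5, 56.1, 74.8 and 64.5 CPM to 230 and 233 CPM (1.93, SE 0.28). All 6 of these rpn10-1 values lay above every Col-0 value of the same gene. PTRE1, known as a regulator of proteasome activity in auxin signalling, rose by 0.98 (SE 0.14) and the deubiquitinase gene UBP6 by 0.68 (SE 0.13). The deubiquitinase genes UCH1 and UCH2 and the core chaperone genes PBAC3 and PBAC4 were not called. Against Col-0 libraries 1 and 2 alone 6 of these genes rose.

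Other routes for ubiquitinated proteins changed in a few genes, where 11% of all tested genes rose and 11.6% fell. Of 16 tested genes for shuttle receptors and for the CDC48 segregase, an ATPase that extracts ubiquitinated proteins from complexes and membranes, 5 rose and none fell, with a median of 0.14. AtCDC48B (AT3G53230) stood at 20.5, 17, 18.4 and 18.3 CPM in Col-0 and at 137 and 182 CPM in rpn10-1 (3.24, SE 0.20, edgeR adjusted p = 7.2e-08), and CDC48A (AT3G09840) rose from 402 to 462 CPM to 847 and 1076 CPM (1.3, SE 0.22). AtCDC48C (AT5G03340) stood at 40.7 to 42 CPM in Col-0 and at 38.9 and 44.5 CPM in rpn10-1 (0.12, SE 0.15). The shuttle DSK2A rose (0.73, SE 0.14), as did DDI1 (0.91, SE 0.17), a shuttle-type protein with a protease-like domain. DSK2B and the 4 RAD23 genes, the other shuttles with a ubiquitin-like domain, were not called, with log2 fold changes between -0.18 and 0.17. Among 11 tested ubiquitin and ubiquitin-activating genes 2 rose, UBQ4 (0.71, SE 0.17) and UBA2 (0.61, SE 0.16), and none did against Col-0 libraries 1 and 2 alone. These 2 of 11 are near the share of all tested genes that rose. UBQ10, the main polyubiquitin gene, stood at 1270 to 1436 CPM in Col-0 and at 1389 and 1755 CPM in rpn10-1 (0.34, SE 0.21, edgeR adjusted p = 0.24).

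Of 12 tested genes for NAC transcription factors with a membrane anchor or close to them, 3 rose: NAC103, NAC089 and NTM1. The share that rose over all tested genes was 11%. Only NAC103 was called under each of the 14 alternatives, NAC089 under 9 and NTM1 under 6, and 1 gene of the list rose without rpn10-1 library 1, without the library set term or against Col-0 libraries 1 and 2 alone. NAC103, a NAC gene known from stress of the endoplasmic reticulum, stood at 2.24, 1.54, 0.723 and 2.28 CPM in Col-0 and at 48.9 and 45.9 CPM in rpn10-1 (4.72, SE 0.31, edgeR adjusted p = 9.3e-08). NAC089 rose by 0.80 (SE 0.21) and NTM1 by 1.04 (SE 0.33, edgeR adjusted p = 0.033). NAC053 stood at 14.9 to 18.3 CPM in Col-0 and at 16.4 and 15.6 CPM in rpn10-1, and NAC078 at 59.5 to 65.1 CPM and at 51.9 and 58.7 CPM. Their log2 fold changes were -0.01 (SE 0.25) and -0.10 (SE 0.12; edgeR adjusted p = 0.99 and 0.58). Of 22 tested unfolded protein response genes, such as chaperones of the endoplasmic reticulum, edgeR called 0 (median -0.05), DESeq2 called 0, and 2 passed an unadjusted p of 0.05 in edgeR.

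**Figure D4:**
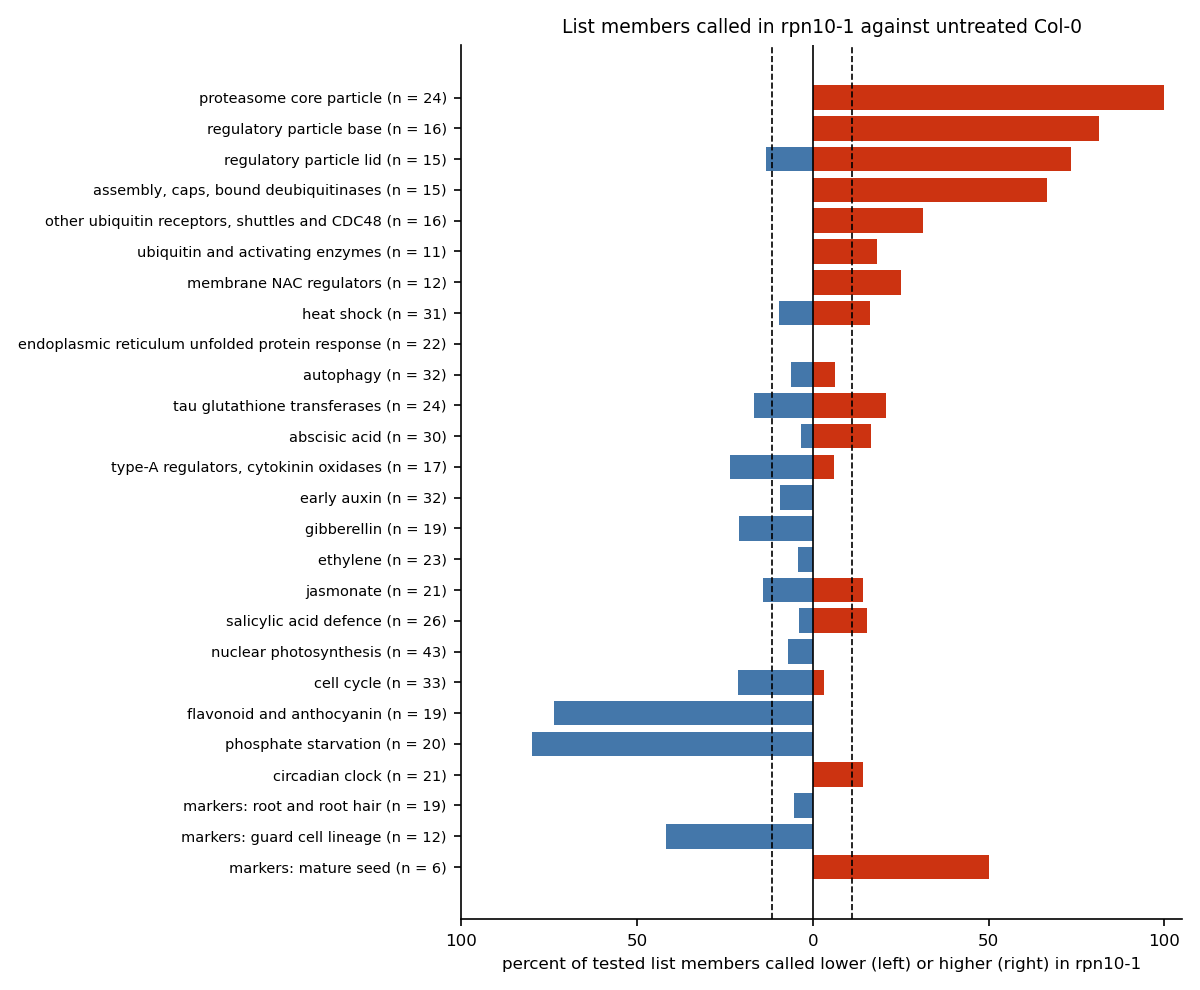
Bars give, for each gene list, the percent of its tested members called higher (right) or lower (left) in rpn10-1 by edgeR, with the number tested in brackets; dashed lines mark the 11% and 11.6% of all tested nuclear genes. The proteasome lists extend farthest to the right, and the flavonoid (14 of 19) and phosphate starvation (16 of 20) lists farthest to the left.

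Flavonoid and anthocyanin genes fell, where 11.6% of all tested genes did. Of 19 tested genes 14 fell and none rose (median log2 fold change -1.84), and 12 fell against Col-0 libraries 1 and 2 alone, 11 without rpn10-1 library 1, 12 without library 2 and 10 without the library set term. The late steps, which turn dihydroflavonols into coloured anthocyanins, had the largest falls. UF3GT, which adds xylose to anthocyanins, stood at 22.4, 22.3, 17.5 and 13.8 CPM in Col-0 and at 0.342 and 1.49 CPM in rpn10-1 (-4.51, SE 0.56, edgeR adjusted p = 5.9e-05). DFR, the dihydroflavonol reductase, stood at 59.8, 76.3, 47.8 and 42.1 CPM and at 1.1 and 9.68 CPM (-3.61, SE 0.69, edgeR adjusted p = 0.0021). In both genes library 1 of rpn10-1 was lower than library 2, and both lay below every Col-0 value.

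Of the earlier steps, F3'H, the flavonoid 3'-hydroxylase, fell from 38.5, 45.5, 33.3 and 21.2 CPM to 3.83 and 4.47 CPM (-3.17, SE 0.31, edgeR adjusted p = 5.4e-06). CHS, chalcone synthase, the entry enzyme of the pathway, stood at 1056, 1206, 415 and 327 CPM in Col-0, the first 2 values from libraries 1 and 2, and at 188 and 277 CPM in rpn10-1 (-1.97, SE 0.37). Among the regulators, PAP1, a MYB activator of anthocyanin genes, fell from 3.11 to 4.41 CPM to 0.274 and 0.838 CPM (-3.07, SE 0.60), and TT8, its bHLH partner, from 3.89 to 4.22 CPM to 1.3 and 1.96 CPM (-1.3, SE 0.27). MYB111, a MYB activator of flavonol genes, fell by 1.43 on the log2 scale (SE 0.22). Another activator of flavonols, MYB12, the WD40 protein TTG1 and the bHLH genes GL3 and EGL3 were not called.

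Phosphate starvation genes also fell in the fit, where 11.6% of all tested genes did, but their level differed between the Col-0 libraries. Of 20 tested genes 16 fell and none rose (median -1.89), and 13 fell against Col-0 libraries 1 and 2 alone. Without the library set term 3 fell. MGD2, a synthase of galactolipids that replace phospholipids, stood at 78.3, 104, 15.3 and 15.6 CPM in Col-0 libraries 1 to 4 and at 3.56 and 1.58 CPM in rpn10-1 (-4.89, SE 0.41, edgeR adjusted p = 1.5e-06). Both rpn10-1 values lay below all Col-0 values. AT4 (AT5G03545), a noncoding RNA induced by phosphate starvation, stood at 327, 425, 129 and 106 CPM and at 30.5 and 4.66 CPM (-4.30, SE 0.57). IPS1, a noncoding RNA that sequesters a microRNA of the same response, stood at 107, 155, 3.98 and 2.35 CPM in Col-0 and at 5.06 and 0.186 CPM in rpn10-1 (-5.42, SE 0.62). In 11 of the 20 genes, among them IPS1, SQD1, SQD2 and PS3, the rpn10-1 and Col-0 libraries overlapped. No fit left out both Col-0 libraries 1 and 2, so how far the calls of these 4 rest on them was not tested. PHR1, the transcription factor of the response, and PHO2 were not called.

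**Figure D5:**
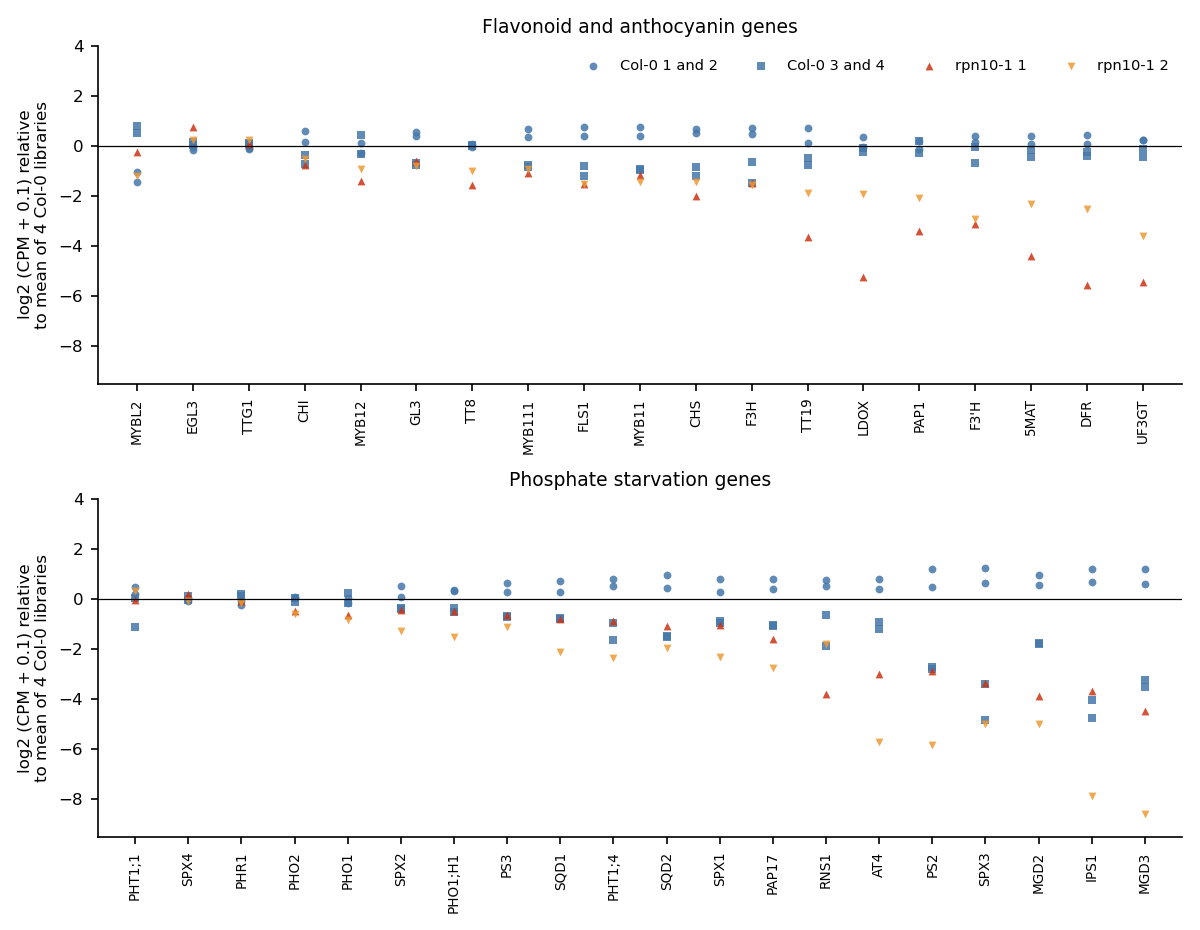
Points are libraries, plotted as log2 of CPM + 0.1 relative to the mean of the 4 Col-0 libraries, for the tested flavonoid and phosphate starvation genes. Col-0 libraries 1 and 2 lay above libraries 3 and 4 for most phosphate starvation genes, and rpn10-1 overlapped with Col-0 for 11 of the 20, while 14 of the 19 flavonoid genes lay below all Col-0 libraries, as did 18.9% of all tested genes.

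Hormone and defence lists held a few changed genes each, where 11% of all tested genes rose and 11.6% fell. Of 21 tested jasmonate genes 3 rose and 3 fell. VSP2, a vegetative storage protein gene induced by jasmonate, stood at 1.52, 5.02, 3.18 and 2.84 CPM in Col-0 and at 0.137 and 0.0931 CPM in rpn10-1 (-4.81, SE 0.63, edgeR adjusted p = 0.0001), and its copy VSP1 fell likewise (-5.26, SE 0.64). JAZ7 and JAZ2, repressors of the response, rose by 2.55 (SE 0.61) and 0.93 (SE 0.22), and the lipoxygenase gene LOX3 by 1.22 (SE 0.27). Of 26 salicylic acid defence genes 4 rose and 1 fell (median 0.69), and without rpn10-1 library 1 this was 1 and 0. WRKY38, a defence-induced transcription factor gene, stood at 0.132 to 0.307 CPM in Col-0 and at 4.52 and 7.82 CPM in rpn10-1 (4.93, SE 0.71, edgeR adjusted p = 0.00022), and NPR4, a salicylic acid receptor gene, rose by 0.89 (SE 0.23).

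Of 17 tested cytokinin genes, from a list of type-A response regulators, cytokinin oxidases and cytokinin response factors, 4 fell and 1 rose (median -0.20). ARR5 stood at 35, 23.2, 27.5 and 25 CPM in Col-0 and at 14.6 and 15 CPM in rpn10-1 (-0.99, SE 0.23, edgeR adjusted p = 0.0084), and ARR4 fell by 0.88 (SE 0.24). Of 19 gibberellin genes 4 fell and none rose, among them the gibberellin-induced GASA1, from 140 to 326 CPM in Col-0 to 58.8 and 82.4 CPM (-1.91, SE 0.43), and GA3OX1, an enzyme of the last step of gibberellin synthesis (-0.63, SE 0.21). Of 32 early auxin genes 3 fell (IAA28 by 0.90, SE 0.23) and of 23 ethylene genes 1, which became 4 without rpn10-1 library 2 and 0 against Col-0 libraries 1 and 2 alone. Of all tested genes, 11.6% fell. Without rpn10-1 library 1 none of the cytokinin, auxin and gibberellin genes was called lower, and without library 2 the counts were 1, 11 and 5. Of 30 abscisic acid genes 5 rose and 1 fell. Without library 1 the counts were 6 and 0, and without library 2 they were 1 and 4, so their direction depended on the library. RAB18, induced by abscisic acid, stood at 0.479 CPM in library 1 and at 9.96 CPM in library 2, the library with the seed markers.

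In the lists of heat shock, autophagy and detoxification genes, the called genes went in both directions. Of 31 tested heat shock genes 5 rose and 3 fell, with a median of 0.01, where 11% and 11.6% of all tested genes did. HSP90-2, a constitutive cytosolic chaperone gene, stood at 379, 348, 332 and 349 CPM in Col-0 and at 192 and 178 CPM in rpn10-1 (-0.78, SE 0.20, edgeR adjusted p = 0.012). The heat-induced HSP90-1 stood at 11.4, 7.38, 18.6 and 16.7 CPM and at 17.59 and 20.6 CPM (1.06, SE 0.21), so that one rpn10-1 value lay within the Col-0 range. Without library 1 the list had 1 rise and 0 falls, and against Col-0 libraries 1 and 2 alone 0 and 3. Of 32 autophagy genes 2 rose and 2 fell. ATG8B, one of the ubiquitin-like proteins that coat autophagosomes, stood at 13.8 to 15.3 CPM in Col-0 and at 42.3 and 34.7 CPM in rpn10-1 (1.33, SE 0.18), and ATG8C at 26.3 to 30.8 CPM and at 13.8 and 14.7 CPM (-1.10, SE 0.24; edgeR adjusted p = 0.00012 and 0.0046). NBR1, an autophagy receptor for ubiquitinated cargo, rose by 0.67 (SE 0.21). Of 24 tau glutathione transferase genes, for enzymes of detoxification, 5 rose and 4 fell, and without library 1 it was 1 and 1.

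Some genes of dividing cells fell, and their number depended on the library. For this list and the clock genes below, the shares over all tested genes were 11% higher and 11.6% lower. Of 33 tested cell cycle genes 7 fell and 1 rose (median -0.28), without library 1 this was 1 and 0, and without library 2 it was 11 and 1. KN, the syntaxin of the cell plate, stood at 29.8, 29.1, 27.4 and 39.3 CPM in Col-0 and at 10.3 and 17.2 CPM in rpn10-1 (-1.3, SE 0.27, edgeR adjusted p = 0.0036), and the mitotic cyclin gene CYCB1;4 at 12.2 to 15.9 CPM and at 5.68 and 9.22 CPM (-1.08, SE 0.18). Of 21 circadian clock genes 3 rose, the pseudo-response regulators PRR3, PRR5 and PRR7, and none did without library 1. PRR7 stood at 40.1, 33.6, 96.1 and 108 CPM in Col-0 and at 154 and 62.8 CPM in rpn10-1 (1.21, SE 0.39), with library 2 inside the Col-0 range.

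Markers of cell types were read in the same libraries. Of 12 tested genes of the guard cell lineage 5 fell and none rose (median -0.99), where 11.6% of all tested genes fell. Against Col-0 libraries 1 and 2 alone 1 of the 12 fell. The summed level of the 12 genes was 115 to 162 CPM in Col-0 and 90.2 and 101 CPM in rpn10-1. TMM, a receptor that patterns stomata, stood at 17.56, 19.3, 19.5 and 21.5 CPM in Col-0 and at 2.4 and 6.42 CPM in rpn10-1 (-2.23, SE 0.33, edgeR adjusted p = 0.00031), and EPF2, a peptide that limits entry into the lineage, at 2.64 to 5.33 CPM and at 0.821 and 1.3 CPM (-2.19, SE 0.44). In whole seedlings fewer cells of a type and less RNA per cell cannot be told apart. One guard cell gene fell without library 1 and 5 without library 2. Of 43 nuclear photosynthesis genes 3 fell (median -0.33), 4 without library 1, 1 without library 2, 0 against Col-0 libraries 1 and 2 alone and 6 in DESeq2, and their summed level was 107153 to 148891 CPM in Col-0 and 124184 and 88960 CPM in rpn10-1. Of 19 root and root hair markers 1, the phosphate exporter gene PHO1, fell (-0.62, SE 0.18), and their sums overlapped, with 460 to 660 CPM in Col-0 and 520 and 726 CPM in rpn10-1. The 7 pollen markers summed to 1.23 CPM or less in each library. Of the 6 mature seed markers that passed the filter on low counts 3 were called higher, CRU3, CRA1 and OLEO1, all from library 2: CRU3, a storage protein gene, stood at 0.548 and 31.6 CPM in the rpn10-1 libraries and at 0 to 1.88 CPM in Col-0. Without library 2 none was higher. Their part in the other results was not tested.

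Beyond the lists, single genes differed far more than the proteasome genes did. ESP, the epithiospecifier protein that steers the breakdown of glucosinolates towards nitriles, stood at 1.98, 3.59, 2.17 and 4.22 CPM in Col-0 and at 4172 and 3514 CPM in rpn10-1, a log2 fold change of 10.76 (SE 0.38, edgeR adjusted p = 3.5e-10). AT4G29200, annotated as related to beta-galactosidases, stood at 0 to 0.264 CPM and at 129 CPM in both rpn10-1 libraries. AT5G41660, an uncharacterized protein gene, stood at 0 to 0.102 CPM and at 35 and 33.2 CPM. In rpn12a-1 these 3 genes stood at 2568 and 2720, 13.8 and 14.3, and 29.8 and 27 CPM. The values of rpn12a-1 are read against the same Col-0 libraries.

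A set of genes expressed in Col-0 had no counts at all in rpn10-1. Counting those whose Col-0 mean was 5 CPM or more, there were 24, with means of 5.24 to 183 CPM. They lay on chromosome 5 (12 genes), chromosome 1 (8), chromosome 3 (3) and chromosome 4 (1). AT4G34881, for an uncharacterized protein, stood at 178, 139, 203 and 172 CPM in Col-0 and at 0 in rpn10-1, at least 1463-fold lower with 3 counts per group as the floor, a limit for counting error only. AT5G49440, also uncharacterized, stood at 139, 132.5, 157 and 170 CPM in Col-0 and was at least 1264-fold lower. In rpn12a-1 they stood at 150 and 120 CPM and at 168 and 155 CPM. Of the 24 genes 6 were also below 10% of their Col-0 mean in rpn12a-1, among them AT1G64270 and AT1G65985 with no counts in either mutant. Of the others, AT1G51430, AT1G50290, AT1G52347, AT5G38000 and AT5G42825 were also called lower in rpn12a-1 than in Col-0, with log2 fold changes of -3.19 to -2.53. AT5G26270 was called higher in rpn12a-1 (0.83, SE 0.19), and the rest were not called there.

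Among the 24 were 3 genes of the thalianol cluster, a group of adjacent genes on chromosome 5 that make a root triterpene. THAS1, thalianol synthase (chr5:19456837-19461706, plus strand), stood at 162, 119, 65.4 and 31.8 CPM in Col-0 and at 0 in rpn10-1, at least 798-fold lower. CYP705A5, a cytochrome P450 of the cluster (chr5:19434758-19436749, plus strand), stood at 296, 213, 162 and 63.1 CPM and at 0, at least 1549-fold lower. The acyltransferase gene AT5G47980 beside them stood at 43.6, 23, 15 and 4.91 CPM and at 0. CYP708A2, a further cytochrome P450 that lies between CYP705A5 and THAS1 and is named here after its values were seen, kept 40.3 and 18 CPM in rpn10-1 against 45.9 to 164 CPM in Col-0 (-2.12, SE 0.37). In rpn12a-1 THAS1 and CYP705A5 stood at 46.3 and 34.2 CPM and at 89.2 and 77.1 CPM.

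In the other direction, 4 genes without a count in any Col-0 library reached at least 5 CPM in rpn10-1. AT1G63540, for a hydroxyproline-rich protein, stood at 17.796 and 13.7 CPM, at least 279-fold higher, and AT4G22450, uncharacterized, at 17.9 and 18.3 CPM, at least 322-fold higher. AT1G61510 stood at 10.7 and 9.87 CPM, and HISN6B, annotated as a gene of histidine synthesis, at 6.16 and 5.87 CPM. The first 3 also stood above 5 CPM on average in rpn12a-1, while HISN6B had no counts there.

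Called genes lay on all 5 nuclear chromosomes, but not evenly along them. The share of tested genes called ran from 18.9% on chromosome 2 to 26% on chromosome 5. In the neighbourhood of RPN10, 12 of 57 tested genes within 100 kb were called (21.1%), and at more than 2000 kb on the same chromosome the share was 20.8%. Of the 5 annotated genes on either side of RPN10, 9 were tested and 2 called, both lower. AT4G38660, a thaumatin-like protein gene, stood at 44.9, 48.1, 39.8 and 44.7 CPM in Col-0 and at 19.9 and 24 CPM in rpn10-1 (-1.09, SE 0.14, edgeR adjusted p = 8.4e-05), and FP6, for a farnesylated protein, at 13.1 to 17.5 CPM and at 8.9 and 9.59 CPM (-0.62, SE 0.19, edgeR adjusted p = 0.032). AT4G38640, a choline transporter family gene nearby, was at 38.4 to 45.8 CPM in Col-0 and at 29.8 and 36.8 CPM in rpn10-1 (-0.35, SE 0.12, edgeR adjusted p = 0.053). In AT4G38660 and FP6 both rpn10-1 values lay below every Col-0 value.

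In 108 windows of 1 Mb with at least 50 tested genes the share called ran from 10% to 57.1%, with a median of 21.25%. Called genes with at least a 4-fold difference made up 0.457% to 54% of a window, with a median of 3.52%. Neighbouring windows could be alike. In the windows of chr5:14000001-20000000 the share called was 29.2% to 38.6%, and in those of chr2:9000001-20000000 it was 16.2% to 19.8%. Both stretches were picked after the values were seen. The window with the highest share was chr2:3000001-4000000, where 35 of 63 genes were higher and 1 was lower. The summed level of its tested genes was 337 to 547 CPM in Col-0, 479 CPM in library 1 of rpn10-1 and 836 CPM in library 2. Mitochondrial genes held 0.0547% of the counts in library 1 and 1.86% in library 2, against 0.0702% to 0.503% in Col-0. The Col-0 genome is known to carry a large copy of mitochondrial DNA in this region. Whether the organelle RNA bears on these calls was not tested. Without library 1, 15 of its genes were higher, and without library 2, 23. In chr5:10000001-11000000, 12 of 52 genes were higher and 13 lower, and in chr1:23000001-24000000 and chr5:15000001-16000000 the share was 38.6% each.

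The mutants were then compared with each other, since both were set against the same Col-0 libraries. In the direct contrast 439 genes (2.08%) were higher in rpn10-1 than in rpn12a-1 and 816 (3.87%) were lower, 5.96% in all, by the same edgeR fit. Both rpn12a-1 libraries carry the technical replicate note and both rpn10-1 libraries lack it, so the set difference was estimated from Col-0 libraries alone, those treated with MG132 included. Without either rpn12a-1 library 85 or 79 genes were higher and 426 or 395 lower, and without rpn10-1 library 1 or 2 the counts were 242 or 675 higher and 477 or 1032 lower.

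Among the proteasome genes 6 of 55 were lower in rpn10-1 than in rpn12a-1 and 1 was higher, RPN12A, the gene mutated in rpn12a-1. The 6 were PBD1, PBC1, PBB1, PAB2, PBC2 and PBF1, all of the core, with differences in log2 fold change of -0.86 to -0.54. The median log2 fold change against Col-0 was 1.28 in rpn10-1 and 1.77 in rpn12a-1 for the 24 core genes, and 1.21 and 1.53 for all 55. Of the 55, 47 were higher and 1 lower in rpn12a-1 than in Col-0, where 2.65% and 2.25% of all tested genes were, or 4.9% in all. Of the phosphate starvation genes 11 of 20 were called lower in rpn10-1 than in rpn12a-1, such as MGD2 (-3.32, SE 0.47, edgeR adjusted p = 0.00067), and none higher. These are differences after adjustment for the library set, and the levels themselves need not differ so. IPS1, with a fitted difference of -4.85, stood at 5.06 and 0.186 CPM in rpn10-1 and at 1.82 and 2.96 CPM in rpn12a-1. In the flavonoid list 2 of 19 were lower and none was higher. VSP2 stood at 0.137 and 0.0931 CPM in rpn10-1 and at 4.18 and 4.09 CPM in rpn12a-1 (-5.43, SE 0.70, edgeR adjusted p = 0.00029).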

How the data were processed

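RNA of whole seedlings was sequenced, and the authors deposited raw read counts per gene for each library, not normalized. Per the submitters' processing notes, Trimmomatic, TopHat, Bowtie2, HTSeq and edgeR were used with the genome build TAIR10, with no versions stated there. Counts were analysed as deposited with edgeR 4.0.16 in R 4.3.3. Genes were kept by edgeR's filter on low counts (filterByExpr, minimum count 10), libraries were scaled by the TMM method, and a quasi-likelihood model with terms for the group and the library set was fitted to all 16 libraries, which share 1 estimate of the spread. Adjusted p-values are Benjamini-Hochberg values over the 21205 genes tested, of which 21062 are nuclear, and the threshold was 0.05. The SE of a log2 fold change was taken as its size divided by the square root of the F statistic, so it is approximate. CPM values use the scaled library sizes, are not divided by gene length and were not compared between genes. Gene names, coordinates and promoter sequences came from RefSeq's TAIR10.1 annotation, and 1 promoter sequence is not reported here. In simulated counts for this comparison (20834 genes), 48% of genes changed 2-fold and 92% of those changed 4-fold were recovered, and 4 unchanged genes were called. The simulated counts held no effect of the library set or of MG132 and no extra spread between the rpn10-1 libraries. They therefore do not give the rate of false calls in the real data. The floors used for genes at 0 cover counting error only.

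Genes were grouped in the lists the text describes, and these members and lists were chosen with earlier results of these data known. Genes were named by a rule: the 15 largest rises and falls, and every gene at 0 in 1 group, among called genes whose higher group averaged 5 CPM or more and whose libraries did not overlap; the best 4 genes per list by p; RPN10 and RPN12A with NAC053 and NAC078; and the 5 genes on either side of RPN10. Not all genes so chosen are printed. Other members of the lists, such as partners of paired genes, were named after their values were seen. Alternatives were RLE size factors, no filter, DESeq2 1.42.0, no library set term, fewer libraries, each library left out, and a replicate block. Replicates 1 and 2 of Col-0 and rpn10-1 share numbers, but the deviations of same-numbered libraries had a correlation of -0.22 over genes, so the numbers were not taken to pair them.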

Additional observations from a re-analysis of the deposited data

Results flagged for a closer look

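The contrast of rpn10-1 with rpn12a-1 tests the difference between the mutants' changes against the same Col-0 libraries, and 439 genes were higher and 816 lower in rpn10-1. The differences in log2 fold change that follow passed that edgeR test. They were -3.97 for RPN10 and 1.56 for RPN12A, each gene being lowest in its own mutant. In the core particle they were -0.86 for PBD1, -0.62 for PBC1, -0.60 for PBC2, -0.59 for PAB2, -0.59 for PBB1 and -0.54 for PBF1. Phosphate starvation genes differed by -4.85 for IPS1, -3.45 for AT4, -3.32 for MGD2, -1.06 for PS3 and -0.80 for PHO1. These are set-adjusted values, and the CPM of IPS1 overlapped between the mutants (5.06 and 0.186 in rpn10-1, 1.82 and 2.96 in rpn12a-1). Flavonoid genes differed by -1.28 for F3'H and -1.21 for TT8. The storage protein genes VSP2 and VSP1 differed by -5.43 and -3.76. The clock genes PRR5 and PRR3 differed by 2.05 and 1.55, and HSP90-1 by 1.22. Of the genes described under the other observations, DR4 differed by -4.13, TPX1 by -1.21, CORI3 by 3.76, bHLH38 by 5.03 and AT3G59930 by -10.37. Both rpn10-1 libraries differ from both rpn12a-1 libraries in the technical replicate note, so part of such a difference cannot be told apart from the library set.

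One Col-0 library stood apart from the other 3 for LOX3 (3.63 CPM), PTRE1 (27.7 CPM), RPT4A (56.3 CPM), bHLH38 (6.36 CPM) and BHLH100 (4.27 CPM). These were 5 of the 135 named genes, and chance marks about 1 gene in 20.

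Outside the tested genes, 2488 nuclear genes had counts in rpn10-1 library 1 and in no other library. In rpn10-1 library 2 plastid genes held 3.03% and mitochondrial genes 1.86% of the counts, above every Col-0 library.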

How the results depend on the processing

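The count of genes that differed between rpn10-1 and Col-0 depended on the controls and on single libraries. Without the library set term 1277 were higher and 1443 lower, and against Col-0 libraries 1 and 2 alone 1246 were higher. When each library was left out in turn the counts ran from 947 to 2231 higher and from 1205 to 2414 lower. RLE size factors, no filter, DESeq2 and a fit on the 6 libraries gave 2093 to 2885 higher and 2394 to 2910 lower. The causes were not tested.

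With the replicate number as a block in place of the library set, 1670 genes were higher and 1935 lower, and with the block on the 4 libraries without the note 558 and 744. In that fit 23 proteasome genes rose and 9 phosphate starvation genes fell. A block with crossed numbers, chosen after seeing the data, gave 1563 and 1877.

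The proteasome count stayed at 43 to 47 with a library left out, and the flavonoid count at 11 to 14. The phosphate starvation count was 15 or 16 with a library left out and 3 without the library set term. RPN10 ranged from -2.47 to -2.28 with a library left out, always past the threshold.

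Between the mutants, no filter gave 1376 higher and 1508 lower, DESeq2 804 and 1230, and no library set term 275 and 502. With a library left out the counts ran from 79 to 675 and from 395 to 1032.

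Of 134 tested named genes 113 were called, and 56 of these passed under each of the 14 alternatives. With a library left out, CRA1 ranged from -3.14 to 3.98, OLEO1 from -0.46 to 4.15, RAB18 from -0.24 to 4.09 and BHLH100 from -0.52 to 6.57, the lowest without rpn10-1 library 2 and the highest without library 1. The depth limits calls of genes of a few counts, and 2 mutant libraries limit all tests.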

Other observations

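Some genes outside the lists, chosen after their values were seen, also had large changes. ACC2, the homomeric acetyl-CoA carboxylase gene of plastids, stood at 11.4, 12.1, 13.2 and 18.19 CPM in Col-0 and at 420 and 397 CPM in rpn10-1 (log2 fold change 5.10, SE 0.25, edgeR adjusted p = 6.2e-09). PMZ, a zinc finger protein gene known from stress responses, stood at 0.622 to 1.13 CPM and at 65.9 and 74.2 CPM (6.17, SE 0.26). DR4, a drought-repressed gene, fell from 404 to 1049 CPM to 15.1 and 14 CPM (-6.01, SE 0.33), and TPX1, a thioredoxin-dependent peroxidase gene, from 140 to 220 CPM to 5.68 and 6.33 CPM (-5.13, SE 0.21). In these 4 genes the groups did not overlap.

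A few more genes chosen in the same way had unequal levels in the rpn10-1 libraries. CORI3, a gene induced by the jasmonate mimic coronatine, stood at 2.63 to 3.1 CPM in Col-0 and at 130 and 30.2 CPM in rpn10-1 (4.79, SE 0.44), and THI2.2, a thionin gene, at 14.6 to 26.1 CPM and at 121 and 258 CPM (3.26, SE 0.44). The iron deficiency regulators bHLH38 and BHLH100 stood at 1.98 and 88.8 CPM and at 0.411 and 60 CPM in rpn10-1 libraries 1 and 2, so their calls rest on library 2. AT3G59930, a defensin-like gene, stood at 27.8 to 68.9 CPM in Col-0, at 0.342 and 0.745 CPM in rpn10-1 and at 486 and 315 CPM in rpn12a-1.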
